A study of Mus musculus with 9 samples.

Results

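Zinc reaches the insulin granule, the Golgi apparatus and the cytosol of islet cells through separate transporters, and 10 genes of that system were followed here across 9 mouse islet samples. The genes were chosen by symbol: Slc30a8, Slc30a5, Slc30a7 and Slc30a9, which encode ZnT transporters, Slc39a14, Slc39a8, Slc39a7 and Slc39a10, which encode ZIP transporters, and the metallothionein genes Mt1 and Mt2. They are 10 of the 46316 gene symbols in the count table, and each is represented by its transcript row with the highest total count. All 10 held enough counts to be tested.

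Pancreatic islets hold the insulin-secreting beta cells along with other endocrine cells, and were sequenced as bulk total RNA in 3 groups of 3 samples. The groups are untreated db/+ mice, untreated db/db mice, and db/db mice that received imeglimin together with metformin, both oral glucose-lowering drugs. The db allele is a leptin receptor mutation: db/db mice are homozygous for it and develop obesity and diabetes, and db/+ mice carry 1 copy, so every group holds the allele. No group received a single drug. Dose, length of treatment, age, sex and how many mice were pooled per sample are details not given in the sources used here. Nothing in the labels ties the replicates to separate mice, and p-values therefore reflect the spread among these samples, which may be technical.

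ZnT proteins move zinc out of the cytosol, into vesicles and organelles or out of the cell, and ZIP proteins move it the other way. In beta cells ZnT8, the product of Slc30a8, loads zinc into insulin granules, where zinc and insulin crystallise together and from which both are released. Metallothioneins are small cysteine-rich proteins that bind zinc and copper in the cytosol, and their genes are induced by zinc through the metal-sensing transcription factor Mtf1.

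Libraries held 10292667 to 15281806 counts summed over genes. Levels are given in CPM, in which each library is scaled to its total, corrected for composition by TMM. The islet hormone genes were present in every library, and Ins1 and Ins2 together held 23.1% to 34.8% of db/+ counts, 14.2% to 20.7% of untreated db/db counts and 17.2% to 19.3% of treated db/db counts. Markers of other cell types differed between groups. The summed level of 17 acinar markers was 59.0 to 190.1 CPM in db/+, 356 to 2568 in untreated db/db and 186 to 499.6 in treated db/db libraries, with none of the 17 at 0 throughout a group. The summed level of 10 lymphocyte markers was 8.67 to 13.3, 20.8 to 223 and 1.69 to 2.62 CPM in the same order, with Cd3d, Cd3g, Cd8a and Ms4a1 at 0 in all db/+ libraries and Cd3g and Cd8a at 0 in all treated ones. Both maxima belonged to untreated db/db replicate 1. In db/+ libraries 4 to 7 of the 10 lymphocyte markers were at 0 and in treated ones 2 to 5, so the sums do not stand for each marker. The 8 endothelial markers summed to 519 to 588, 329 to 437 and 313 to 330.4, and the 9 stellate markers to 229.5 to 262, 253 to 612 and 253 to 413. The 4 delta and PP cell markers summed to 7254 to 10267, 4718 to 6699 and 3866 to 6124. The 8 macrophage markers summed to 129 to 134, 159 to 202 and 145 to 164. Neither sum overlapped between db/+ and db/db libraries. The PP cell hormone gene Ppy alone did overlap, at 2728 to 3363, 1995 to 2863 and 2009 to 3309 CPM. Single macrophage markers moved both ways, however, so their sum does not stand for each of the 8. Against db/+, the test described below found 3 of them up and 2 down without drugs. With drugs it found 4 up and 3 down. Of the 9 stellate markers, whose sums overlapped, 6 were up and 0 down without drugs (median log2 fold change 2.94). The same markers gave 5 up and 0 down with drugs (median 2.17). Of the 4 delta and PP markers 2 were down without drugs and 3 with drugs. All tested genes gave 31.3% up and 32% down without drugs, and 32.8% and 32.5% with drugs. Against db/+, 8 of the 10 lymphocyte markers were up and 0 down without drugs. With drugs 0 were up and 1 was down, with a median log2 fold change of 0.175. The sums of alpha cell and ductal markers overlapped between db/+ and both db/db groups. The part of these cells in the results below was not tested.

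Fold changes are log2 values ± standard error, and a gene was called where the Benjamini-Hochberg adjusted p over all 16761 genes tested with edgeR was under 0.05. Between untreated db/db and db/+ islets, 9 of the 10 genes were called, 4 higher and 5 lower, in a comparison in which 63.3% of all tested genes were called (31.3% higher and 32% lower). Most tested genes were thus called in this comparison, and the difference between the share of the 10 and that background was not tested. The median log2 fold change was -0.64 over the 10 genes and 0.023 over all tested genes. The 9 called genes also had groups that did not overlap, which held for 67% of all tested genes.

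**Figure D1:**
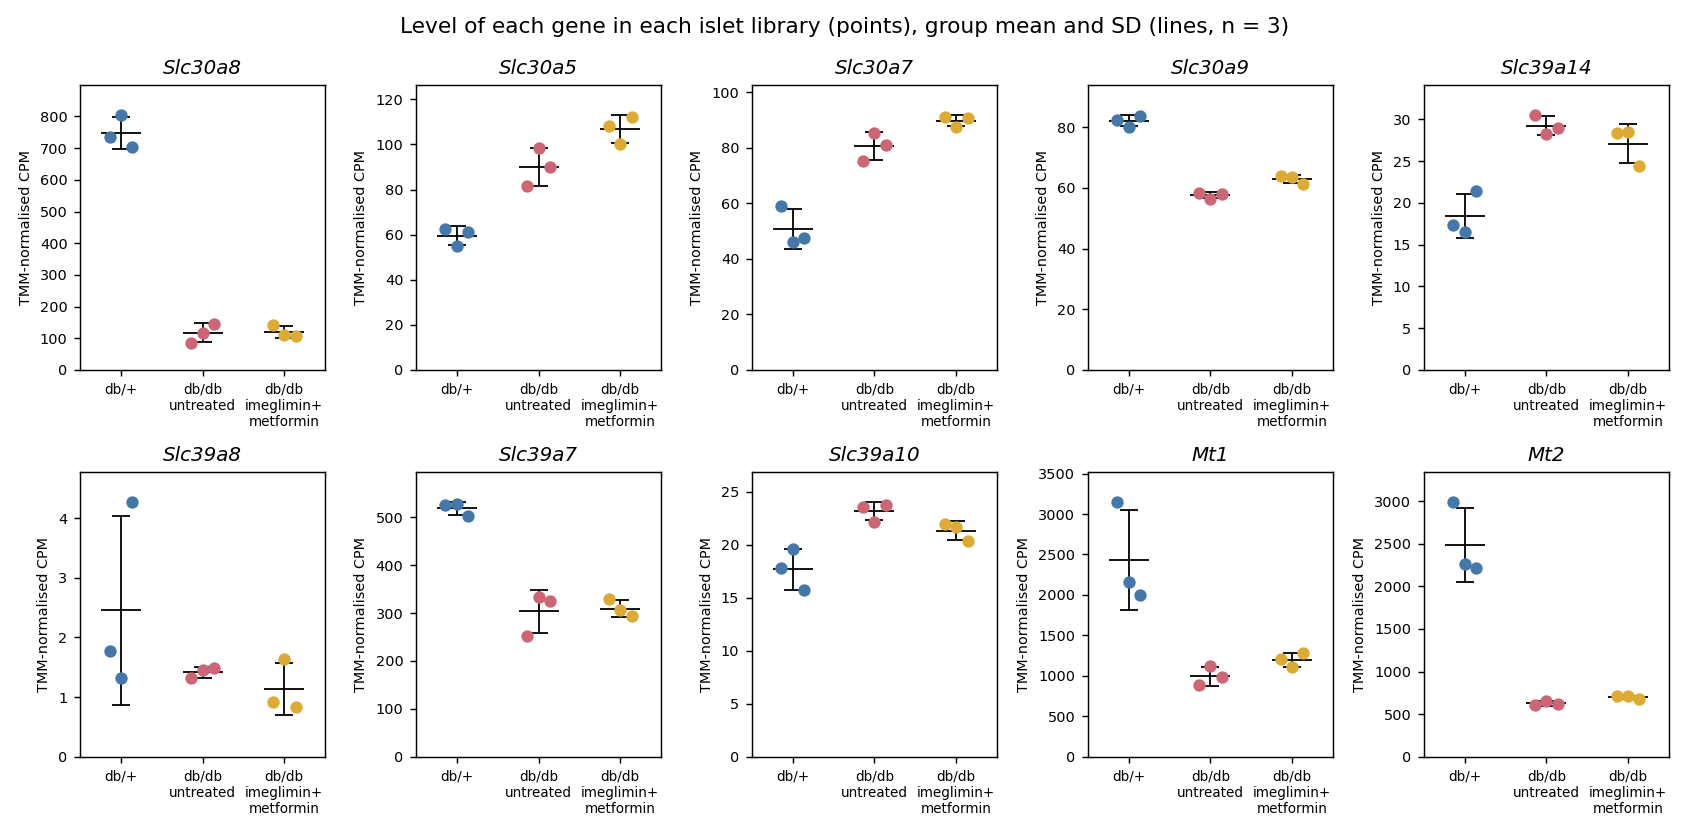
Level of each of the 10 genes in TMM-normalised CPM (vertical axes from 0) in each library (points) of the db/+, untreated db/db and treated db/db groups, with group mean and SD (lines, n = 3). Slc30a8 lies at 705 CPM or above in every db/+ library and at 146 CPM or below in every db/db library, and Slc39a8 never exceeds 4.27 CPM.

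Slc30a8, the insulin granule transporter, showed the largest change of the 10. Its level was 735, 803 and 705 CPM in db/+ libraries and 86.6, 118 and 146 CPM in untreated db/db libraries. The lowest db/+ library thus lay above the highest db/db library by a wide margin, and the group means of 748 ± 50.2 and 117 ± 29.9 CPM (SD, n = 3) differed 6.39-fold. The log2 fold change was -2.68 ± 0.18 with an adjusted p of 2.81e-07. Untreated replicate 1, which had the lowest Slc30a8 level, also had the lowest share of insulin counts and the highest acinar and lymphocyte sums, and without it the log2 fold change was -2.49 (adjusted p = 2.87e-07). In bulk samples fewer cells of a type and less RNA per cell cannot be told apart.

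The fall of Slc30a8 was set against the insulin transcripts of the same libraries, since ZnT8 serves the insulin granule. Per 1000 Ins2 counts there were 2.63, 3.87 and 4.77 Slc30a8 counts in db/+ libraries and 0.838, 0.761 and 0.981 in untreated db/db libraries, a ratio 4.27-fold lower. Per 1000 Ins1 counts there were 4.97, 6.81 and 7.96 in db/+ and 4.67, 3.86 and 3.03 in untreated db/db libraries, 1.70-fold lower. Neither pair of groups overlapped, though the lowest db/+ and highest db/db values per Ins1 lie close together. Slc30a8 was thus low relative to Ins2 by a larger factor than relative to Ins1, a gene that itself fell (log2 fold change -1.86, adjusted p = 0.000421). Ins2 had a log2 fold change of -0.64 ± 0.28 and was not called by edgeR (unadjusted p = 0.0403, adjusted p = 0.062), but was called lower with DESeq2, limma voom or summed rows and without db/+ replicate 3. The exact two-sided permutation test gave p = 0.1 for each ratio, the smallest value that 3 against 3 libraries allow (adjusted p = 0.15 over 24 tests of 8 within-library quantities).

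The 2 Golgi transporters moved opposite to Slc30a8. Slc30a5 encodes ZnT5, which works with ZnT6 to deliver zinc to enzymes of the early secretory pathway such as alkaline phosphatases. Its level was 62.6, 54.9 and 61.3 CPM in db/+ and 81.8, 98.2 and 89.9 CPM in untreated db/db libraries, so every db/db library was higher. The means of 59.6 ± 4.13 and 90.0 ± 8.22 CPM differed 1.51-fold (log2 fold change 0.60 ± 0.097, adjusted p = 0.000173). Slc30a7 encodes ZnT7, which also feeds zinc to the Golgi. Its level was 59.1, 46.0 and 47.6 CPM in db/+ and 75.4, 85.3 and 80.9 CPM in untreated db/db libraries, again without overlap. It rose 1.58-fold (log2 fold change 0.66 ± 0.10, adjusted p = 0.000123).

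Slc30a9 encodes ZnT9, a transporter of mitochondria that exports zinc from them. Its libraries lay close together within groups, at 82.3, 80.1 and 83.7 CPM in db/+ and 58.3, 56.3 and 58.0 CPM in untreated db/db libraries. It was lower in each db/db library, 1.43-fold in the means (log2 fold change -0.51 ± 0.077, adjusted p = 8.65e-05).

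Among the importers, Slc39a7 fell and 2 others rose. Slc39a7 encodes ZIP7, which releases zinc from the endoplasmic reticulum into the cytosol. Its level was 525, 527 and 503 CPM in db/+ and 252.5, 334 and 324.5 CPM in untreated db/db libraries, with replicate 1 the lowest of the latter. The groups did not overlap, and the means of 518 ± 13.01 and 304 ± 44.6 CPM differed 1.71-fold (log2 fold change -0.77 ± 0.12, adjusted p = 9.68e-05; -0.64 without untreated replicate 1, adjusted p = 0.000258). Slc39a14 encodes ZIP14, which carries iron and manganese as well as zinc and is induced by interleukin-6 in liver. It was at 17.3, 16.5 and 21.4 CPM in db/+ and 30.5, 28.2 and 29.0 CPM in untreated db/db libraries, higher in each of the latter (log2 fold change 0.665 ± 0.12, adjusted p = 0.00031).

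Slc39a10 encodes ZIP10, an importer of the cell surface. It rose from 17.8, 19.6 and 15.7 CPM in db/+ to 23.5, 22.2 and 23.8 CPM in untreated db/db libraries, the smallest change of the called genes (log2 fold change 0.39 ± 0.11, adjusted p = 0.007). The size of that change depended on the transcript row, as described below. Slc39a8 encodes ZIP8, a carrier of manganese, zinc and iron, and had 13 to 43 counts per library. It was at 1.78, 1.33 and 4.27 CPM in db/+ and 1.32, 1.45 and 1.49 CPM in untreated db/db libraries, so the groups overlapped and db/+ replicate 3 stood above the rest. It was not called (log2 fold change -0.79 ± 0.43, 95% interval -1.72 to 0.14, adjusted p = 0.124), and without db/+ replicate 3 the value was -0.092.

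The metallothioneins were the most abundant of the 10 and both fell. Mt2 was at 2988, 2258 and 2220.4 CPM in db/+ and 606, 656 and 614 CPM in untreated db/db libraries. The means of 2489 ± 433 and 625 ± 27.0 CPM differed 3.98-fold (log2 fold change -1.99 ± 0.14, adjusted p = 2.06e-07). Mt1 was at 3146, 2155 and 1996 CPM in db/+ and 887, 1119 and 982 CPM in untreated db/db libraries, 2.44-fold lower in the means (log2 fold change -1.29 ± 0.17, adjusted p = 3.28e-05). For both genes db/+ replicate 1 was highest and no db/db library reached any db/+ library.

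Mt1 fell by less than Mt2 within the same libraries. There were 1.05, 0.954 and 0.899 Mt1 counts per Mt2 count in db/+ libraries, near equal numbers, against 1.46, 1.71 and 1.60 in untreated db/db libraries. The ratio was higher in each db/db library, 1.64-fold in the mean, with the smallest exact permutation p that the design allows (p = 0.1, adjusted p = 0.15). Mt1 and Mt2 are related in sequence, and the counting of reads that match both is not known here.

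**Figure D2:**
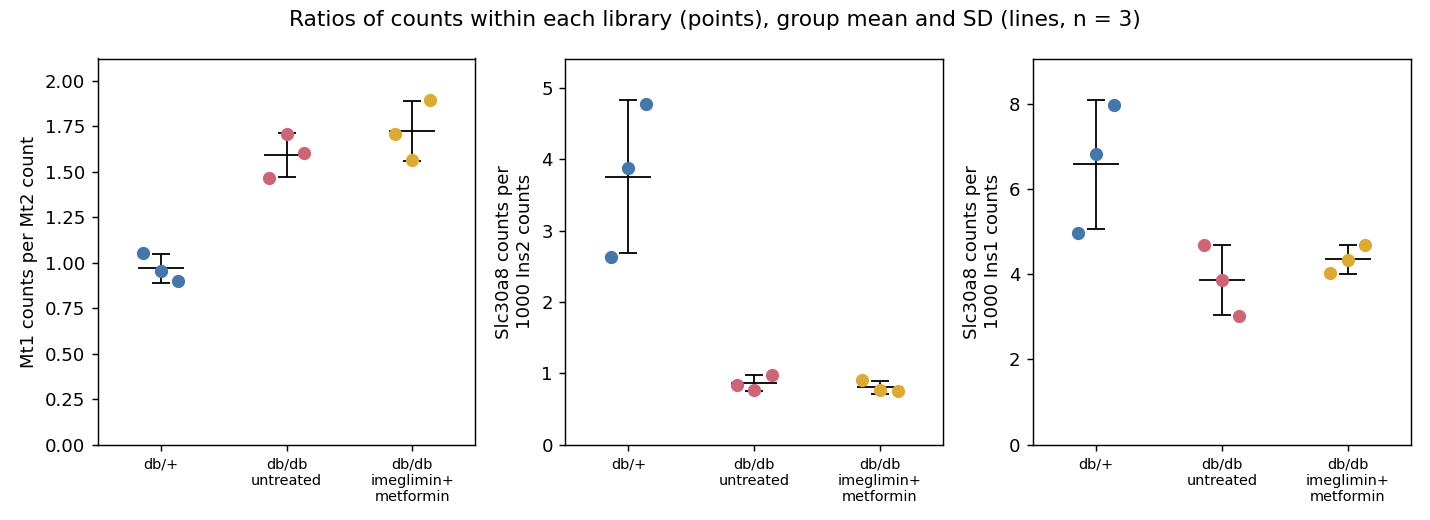
Ratios of counts within each library (points; lines: mean and SD, n = 3): Mt1 counts per Mt2 count, Slc30a8 counts per 1000 Ins2 counts and Slc30a8 counts per 1000 Ins1 counts, each axis from 0. The db/+ libraries lie between 0.899 and 1.05 for the first ratio and the 6 db/db libraries between 1.46 and 1.89, while per 1000 Ins1 counts the lowest db/+ value of 4.97 is close to the highest db/db value of 4.69.

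Because Mt1 and Mt2 fell together and are the known targets of Mtf1, their promoters are shown. The sequences are the 250 bases before each start in the RefSeq promoter table (build GRCm38.p6), which holds 8 of the 10 genes and need not contain every start in use. They run 5′ to 3′ on the plus strand, at chr8:94178839-94179088 for Mt1 and chr8:94172368-94172617 for Mt2, and capitals mark matches on either strand to TGCACNC or TGCGCNC, the core of the metal response element that Mtf1 binds.
Mt1: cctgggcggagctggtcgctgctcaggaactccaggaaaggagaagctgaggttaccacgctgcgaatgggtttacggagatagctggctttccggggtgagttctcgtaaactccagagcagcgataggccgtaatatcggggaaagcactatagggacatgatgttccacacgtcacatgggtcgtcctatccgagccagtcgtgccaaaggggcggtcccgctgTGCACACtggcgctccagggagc
Mt2: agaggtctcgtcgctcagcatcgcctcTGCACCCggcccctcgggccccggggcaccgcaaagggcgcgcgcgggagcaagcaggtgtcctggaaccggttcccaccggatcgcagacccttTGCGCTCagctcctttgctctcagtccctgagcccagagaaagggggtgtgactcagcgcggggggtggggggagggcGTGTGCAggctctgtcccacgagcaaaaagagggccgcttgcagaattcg

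The Mt2 window holds 3 matches and the Mt1 window 1, beginning 23 bases before the start. The start used may lie upstream of the main start of each gene. These counts thus need not cover the promoter in use and do not rank the 2 genes. With the 50 bases after the start included, Mt2 has 4 matches and Mt1 has 3 in 300 bases. Of all 32851 promoter windows of that length, 25.7% hold at least 1 match, 1.97% at least 3 and 0.52% at least 4. The 2 motif forms differ in a letter, so no position on a strand matches both. Among the transporters, Slc30a5 and 1 of 2 windows of Slc39a8 hold 1 match each, and the windows of Slc30a7, Slc30a9, Slc39a7 and Slc39a10 hold none. A match is a stretch of letters, and binding was not measured.

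Mtf1 itself was lower in untreated db/db islets, at 41.4, 42.7 and 46.7 CPM in db/+ and 25.4, 27.2 and 28.5 CPM in db/db libraries (log2 fold change -0.69 ± 0.095, adjusted p = 4.18e-05). Slc30a1, the surface exporter ZnT1 and another known Mtf1 target, was not called (log2 fold change -0.22 ± 0.13, adjusted p = 0.143), though it was called lower without db/+ replicate 3. Mt3, best known from brain, moved opposite to Mt1 and Mt2: it was at 5.25, 4.996 and 5.16 CPM in db/+ and 13.1, 16.8 and 19.0 CPM in untreated db/db libraries (log2 fold change 1.66 ± 0.16, adjusted p = 2.72e-06). Mt4 had 1 count in all and was not tested.

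On the rows with the highest totals, the rest of both transporter families held larger rises than any of the 10 genes. Of 6 other ZnT genes 3 were tested and 1 was called, Slc30a4, which encodes the vesicular transporter ZnT4 that loads zinc into milk in the mammary gland. Slc30a4 was at 33.7, 29.7 and 32.9 CPM in db/+ and 85.2, 99.8 and 86.4 CPM in untreated db/db libraries (log2 fold change 1.497 ± 0.11, adjusted p = 2.81e-07). Slc30a6, the partner of ZnT5, was level between the groups in its means, 16.4 and 16.0 CPM (log2 fold change -0.031 ± 0.14, adjusted p = 0.856). Slc30a2, Slc30a3 and Slc30a10 had 0 to 4 counts per library and were not tested.

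Of 10 other ZIP genes 8 were tested, of which 3 were called higher and 2 lower, against the background of 31.3% higher and 32% lower. Slc39a11, which encodes ZIP11, was at 6.93, 8.16 and 9.33 CPM in db/+ and 81.4, 89.7 and 83.4 CPM in untreated db/db libraries. That is the largest change of any gene of these families tested here (log2 fold change 3.38 ± 0.13, adjusted p = 9.51e-09). Slc39a9, which encodes the Golgi protein ZIP9, rose from 57.9 ± 9.81 to 120.4 ± 13.6 CPM (log2 fold change 1.06 ± 0.12). Slc39a6, whose product ZIP6 pairs with ZIP10 at the cell surface, rose from 30.6 ± 2.72 to 46.9 ± 3.70 CPM (log2 fold change 0.62 ± 0.097). Slc39a2 fell from 7.34 ± 1.80 to 1.93 ± 0.226 CPM and Slc39a3 from 39.99 ± 2.83 to 26.9 ± 1.73 CPM. Slc39a1, Slc39a4 and Slc39a13 were not called, and Slc39a5 and Slc39a12 had too few counts to test.

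**Figure D3:**
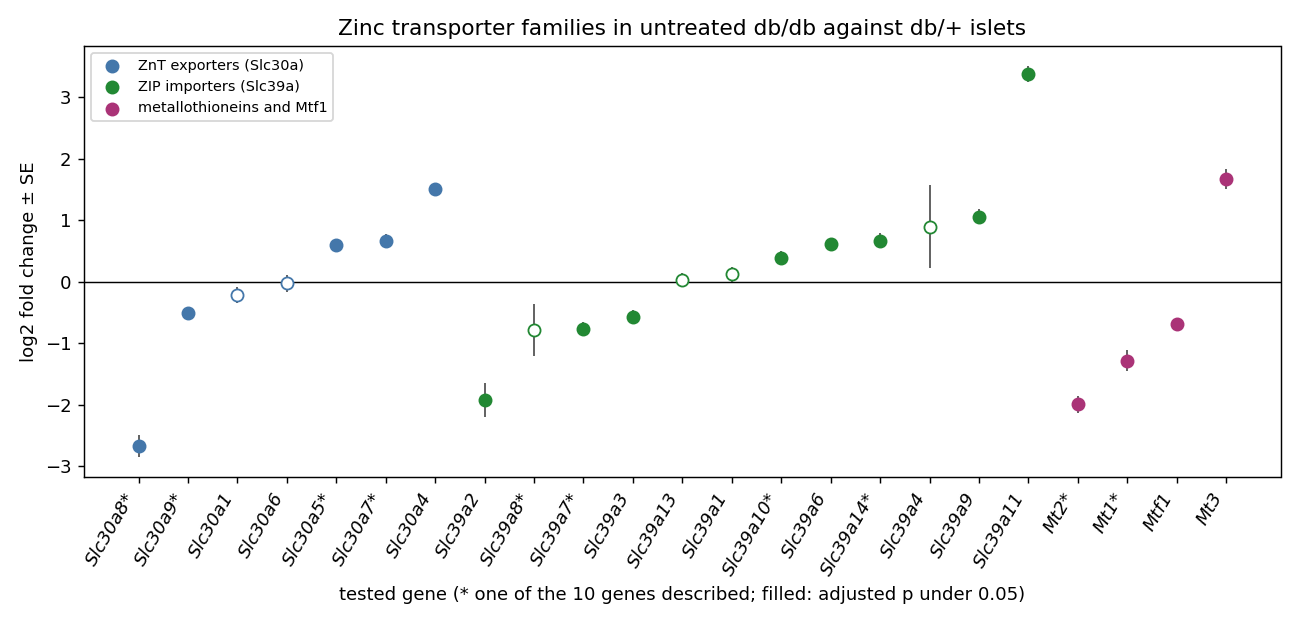
Log2 fold change ± SE (vertical axis) of every tested ZnT, ZIP and metallothionein gene and Mtf1 in untreated db/db against db/+ islets, ordered within each family. Filled symbols have an adjusted p under 0.05 and asterisks mark the 10 genes; each family has called genes on both sides of 0, from -2.68 (Slc30a8) to 3.38 (Slc39a11).

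With both families scaled by transcript length, their composition differed between genotypes. Slc30a8 held 84.6% ± 1.18 of the length-scaled counts of all 10 ZnT genes in db/+ islets and 41.0% ± 5.78 in untreated db/db islets. Slc39a7 held 73.1% ± 0.635 of those of the 14 ZIP genes in db/+ and 49.9% ± 2.69 in untreated db/db islets. Both shares were lower in every db/db library than in any db/+ library (exact permutation p = 0.1 each, adjusted p = 0.15).

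The order of the levels was read per length, as CPM per kilobase of the curated RefSeq row with the highest total. In db/+ islets Mt1 (4479 ± 1150.1) and Mt2 (4476.7 ± 779) led and did not differ beyond their spread. Slc30a8 (379 ± 25.5), Slc39a7 (217 ± 5.44), Slc30a9 (24.1 ± 0.526) and Slc30a5 (18.7 ± 1.298) followed. Slc30a7 (5.64 ± 0.793) and Slc39a14 (3.60 ± 0.463) came next, and Slc39a10 (0.949 ± 0.101) and Slc39a8 (0.696 ± 0.449) were last and overlapped. The most abundant transporter was thus that of the insulin granule.

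In untreated db/db islets 2 neighbouring pairs changed places on the same per-length scale. Slc39a7 (127 ± 18.6) stood above Slc30a8 (59.4 ± 15.2), and Slc30a5 (28.3 ± 2.59) above Slc30a9 (16.9 ± 0.313). Mt1 (1837 ± 215) and Mt2 (1124 ± 48.6) still led but no longer overlapped. Treated db/db islets had the same order of all 10 genes as untreated ones, from Mt1 (2212 ± 155) to Slc39a8 (0.320 ± 0.124).

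Transcript rows of a gene mostly held near equal counts, but those of Slc39a10, Slc30a7 and Slc39a8 did not. The 7 rows of Slc39a8 held 46 to 187 counts over the 9 libraries, and the row with 187 is the one used. For Slc39a10 the row used above is a predicted transcript of 15556 bases, and the other 5 rows have 5000 to 5248 bases. The curated row of 5204 bases was at 5.05, 5.404 and 4.37 CPM in db/+ and 12.6, 11.5 and 15.6 CPM in untreated db/db libraries. Its log2 fold change was 1.42 ± 0.16 (adjusted p = 4.12e-06 over 85598 rows tested), against 0.39 for the long row. Counts of the long row less those of the 5204-base row went the other way. They were 12.8, 14.2 and 11.3 CPM in db/+ and 10.96, 10.6 and 8.18 CPM in untreated db/db libraries (exact permutation p = 0.1, adjusted p = 0.15). Whether the shorter row lies wholly within the long one was not checked.

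For Slc30a7 the full row of 9020 bases rose by 0.66 on the log2 scale, and a predicted row of 999 bases by 2.55 ± 0.18 (adjusted p = 6.62e-08). The short row rose from 2.23 ± 0.302 to 13.1 ± 1.80 CPM, and a predicted row of 7021 bases, at 6.07 ± 0.549 CPM in db/+, to 16.9 ± 2.48 (log2 fold change 1.48 ± 0.16, adjusted p = 2.47e-06). All rows of both genes thus rose, by amounts that depended on the stretch counted. The part of RNA quality or of coverage along the transcript in these differences was not tested. In the GRCm38 annotation Slc30a7 overlaps Gm6649 and Mir669n, and Slc39a8 overlaps 4933401H06Rik, so their counts are uncertain to that extent. The other 8 genes overlap none.

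**Figure D4:**
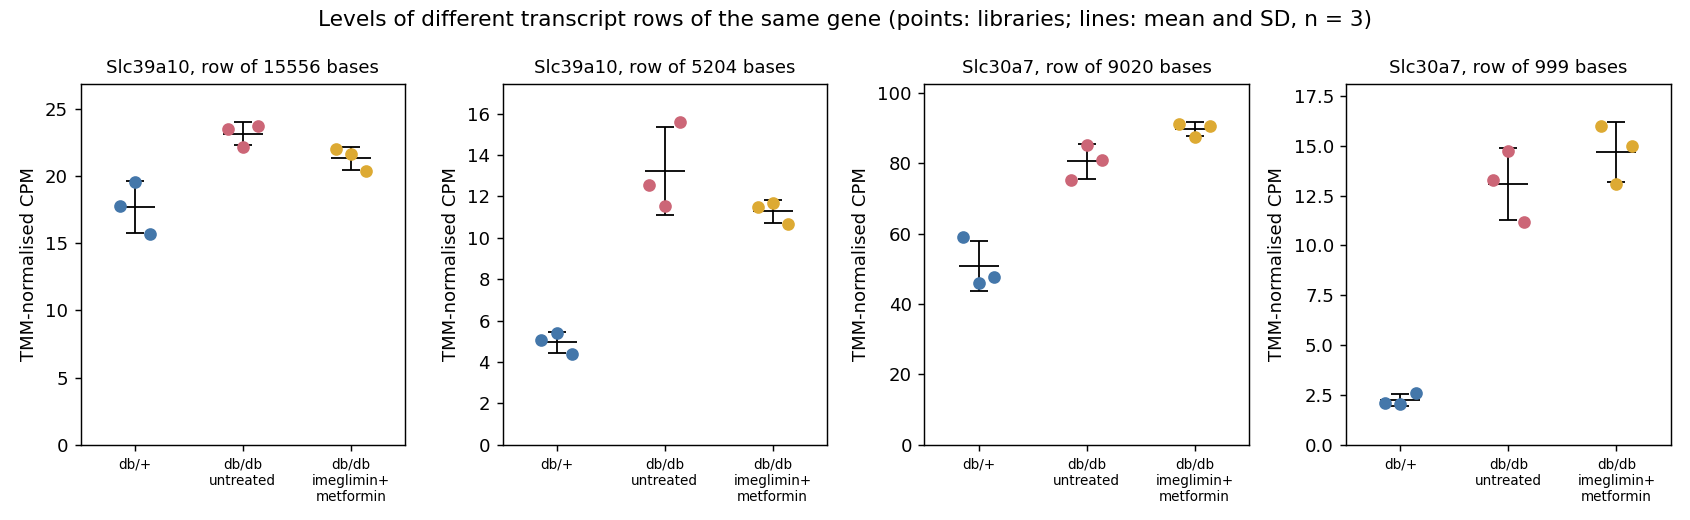
TMM-normalised CPM (vertical axes from 0) of 2 transcript rows of Slc39a10 (15556 and 5204 bases) and 2 of Slc30a7 (9020 and 999 bases) in each library (points; lines: mean and SD, n = 3). The shorter row of each gene shows the larger difference between db/+ and db/db, 2.67-fold for Slc39a10 and 5.84-fold for Slc30a7 in untreated db/db libraries.

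Treatment with imeglimin and metformin left all 10 genes without a call against untreated db/db islets, in a comparison in which 30 of 16761 genes (0.179%) were called, 1 higher (0.00597%) and 29 lower (0.173%). DESeq2 and limma voom also called none of the 10. The median log2 fold change was 0.083 over the 10 genes and 0.071 over all tested genes. In 5 of the 10 the groups did not overlap, which held for 27.6% of all tested genes. Leaving out a library moved the count of all called genes to 6 and 7 without treated replicates 3 and 1, to 12 without db/+ replicate 1 or 2, and to 154, 437 and 202 without untreated db/db replicates 1, 2 and 3, and 0 of the 10 were called in each case.

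For treatment 2918 of all 16761 tested genes had an unadjusted p under 0.05, and Slc30a5 was the only one of the 10. It was at 108, 100.1 and 112 CPM in the treated libraries against 81.8, 98.2 and 89.9 CPM in the untreated ones, higher in each but narrowly so at the edge. Its log2 fold change was 0.25 ± 0.095 (unadjusted p = 0.0232, adjusted p = 0.221), with a 95% interval of 0.04 to 0.453. It lay farther from the db/+ level than in untreated db/db islets. Slc30a7 (87.6 to 91.1 CPM treated, 75.4 to 85.3 untreated) and Slc30a9 (61.3 to 63.8 treated, 56.3 to 58.3 untreated) also had non-overlapping groups, with adjusted p of 0.441 and 0.404.

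Slc30a8 was at 142, 109.9 and 108.6 CPM in the treated libraries, within the range of the untreated ones. Its log2 fold change was 0.039 ± 0.17, with a 95% interval from -0.34 to 0.41 (adjusted p = 0.92), and its sign turned with the setting. The upper bound of that interval is far smaller than the difference of 2.68 between untreated db/db and db/+ islets. Per 1000 Ins2 counts there were 0.911, 0.760 and 0.750 Slc30a8 counts in the treated libraries, overlapping the untreated ones (exact permutation p = 0.5).

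Mt2 was at 707, 709 and 675 CPM in treated libraries, above each untreated library (log2 fold change 0.16 ± 0.13, 95% interval -0.13 to 0.44, adjusted p = 0.553). Mt1 was at 1208, 1111 and 1279 CPM and overlapped the untreated group (log2 fold change 0.27 ± 0.17, 95% interval -0.098 to 0.635, adjusted p = 0.427). The interval of Slc39a7 ran from -0.23 to 0.28, that of Slc39a14 from -0.35 to 0.135, that of Slc39a10 from -0.34 to 0.11 and that of Slc39a8 from -1.28 to 0.63. Each of these intervals includes 0 and gives the range of changes compatible with the 3 libraries a group. None of the other ZnT, ZIP and metallothionein genes nor Mtf1 was called for treatment. At an unadjusted p under 0.05, 2 other ZIP genes were higher, Slc39a3 and Slc39a9, against the background of 2918 of 16761 tested genes.

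**Figure D5:**
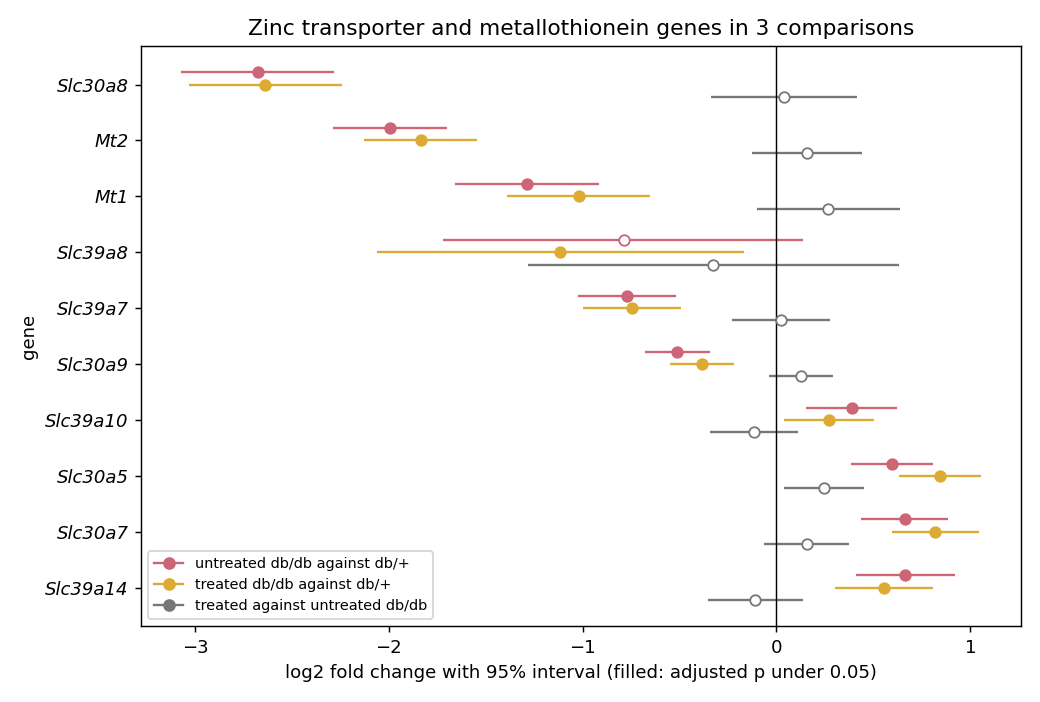
Log2 fold change with 95% interval (horizontal axis) of the 10 genes in 3 comparisons, which share groups with each other; filled symbols have an adjusted p under 0.05. The values against db/+ islets reach from -2.68 to 0.84 and all values for treated against untreated db/db islets lie between -0.325 and 0.27 with open symbols.

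Treated db/db islets were also compared with db/+ islets, a comparison that shares its control libraries with the first. All 10 genes were called, 4 higher and 6 lower, against a background of 65.2% of tested genes (32.8% higher and 32.5% lower). Groups did not overlap for 9 of the 10, against 71% of all tested genes. Slc30a8 was lower by a log2 fold change of -2.64 ± 0.18 (adjusted p = 2.14e-07), Mt2 -1.84 ± 0.135 (adjusted p = 2.35e-07) and Mt1 -1.02 ± 0.17 (adjusted p = 0.000178). Slc30a5 was higher by 0.84 ± 0.097 (adjusted p = 8.30e-06) and Slc30a7 by 0.82 ± 0.10 (adjusted p = 1.79e-05). Slc39a7 was lower by a log2 fold change of -0.75 ± 0.12, and Slc30a9 by -0.385 ± 0.076.

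The calls of 2 genes in that comparison changed with the test and with single libraries. With all libraries of both groups, DESeq2, the replicate block and a fit of only the 2 groups called neither Slc39a8 nor Slc39a10. Slc39a8 was also not called with limma voom or summed rows, and Slc39a10 not with no filter on low counts. Slc39a8 was at 0.917, 1.63 and 0.839 CPM in treated libraries and its groups overlapped (log2 fold change -1.115 ± 0.44, adjusted p = 0.0387). Without db/+ replicate 3 the value was -0.48 (adjusted p = 0.318), and the call was also lost without treated replicate 1 or 3 or untreated replicate 2 or 3. Slc39a10 was at 22.01, 21.6 and 20.4 CPM (log2 fold change 0.27 ± 0.11, adjusted p = 0.0414). Without db/+ replicate 3 its value was 0.16 (adjusted p = 0.225), and the call was also lost without db/+ replicate 1 or treated replicate 1 or 2. On its curated row the value was 1.18 ± 0.16 (adjusted p = 3.59e-05). Slc39a14 kept its call in every setting run (log2 fold change 0.56 ± 0.12, adjusted p = 0.00107).

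Genes of the compartments that these transporters serve were counted from lists. Of 8 transcription factors of endocrine cells that are known or proposed to act on Slc30a8, 7 fell and none rose in untreated db/db islets. With summed rows 6 fell and 0 rose. Isl1, at 137 ± 19.9 CPM in db/+ islets, fell to 58.0 ± 1.07 (log2 fold change -1.24 ± 0.11, adjusted p = 1.03e-06). Pax6 had a log2 fold change of -1.43 ± 0.125 and Pdx1 of -0.81 ± 0.12. At an unadjusted p under 0.05, which 2918 of 16761 tested genes had, 3 of the 8 were higher and 1 was lower with treatment. By edgeR, DESeq2 or limma voom with all 9 libraries 0 were called.

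Of 13 tested genes of the insulin granule, 7 rose and 2 fell in untreated db/db islets. The leading members encode granule proteins. Chgb, for chromogranin B, was at 862 ± 121 CPM in db/+ islets and rose to 4691 ± 40.6 (log2 fold change 2.44 ± 0.17, adjusted p = 2.63e-07), Scg2, for secretogranin II, had a log2 fold change of 2.78 ± 0.25, and Ptprn2, for a granule membrane protein, of 1.66 ± 0.16. Without untreated db/db replicate 2 the counts were 6 and 2, and with DESeq2 or summed rows they were 9 and 3. They were 9 and 2 with upper-quartile factors, with no filter or without db/+ replicate 1. Without untreated replicate 1 they were 8 and 2, and with limma voom or without db/+ replicate 3 they were 7 and 3. For treatment edgeR called 0 of the 13, with 2 higher at an unadjusted p under 0.05, and DESeq2 called Chgb higher.

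Of 7 tested enzymes of the secretory pathway that need zinc or belong to the alkaline phosphatase superfamily, 4 rose and 1 fell in untreated db/db islets. Without db/+ replicate 3 or with no filter on low counts 0 fell. Enpp2, which encodes autotaxin, was at 44.8 ± 7.13 CPM in db/+ islets and rose to 241 ± 54.7 (log2 fold change 2.43 ± 0.17, adjusted p = 3.25e-07). Enpp1, an ectoenzyme that makes pyrophosphate, had a log2 fold change of 1.47 ± 0.21, and Pigg, an enzyme of membrane anchor synthesis, of 1.002 ± 0.12. For treatment 0 of the 7 were called by edgeR, DESeq2 or limma voom, with 1 higher and 1 lower at an unadjusted p under 0.05. The background for these list counts is the 31.3% higher and 32% lower given above. For counts at an unadjusted p under 0.05 with treatment it is the 2918 of 16761 tested genes.

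The genes whose patterns lay nearest to each of the 10 were found by the root mean square difference of log2 CPM over the 9 libraries, after centring each gene on its own mean. For Slc30a8 the nearest were Gm31734 (0.142), Gm18734 (0.161) and Gm33097 (0.164). For Mt2 they were Morn4 (0.133) and Ccnd2 (0.139), and for Mt1 Col13a1 (0.099) and Enho (0.105). Neither metallothionein was among the 5 nearest genes of the other. The closest neighbour of any of the 10 was Npc1 for Slc30a5, at 0.031, followed by Lmtk2 for Slc30a7 at 0.036 and Atg16l1 for Slc30a9 at 0.044. These values describe the libraries and share their depth and group differences.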

How the data were processed

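Column-purified islet RNA went into strand-preserving libraries, per the labels' protocols. The submitters' processing notes name build GRCm39 with cutadapt 1.9.1, HISAT2 2.2.1 and featureCounts 2.0.0. Per the file headers, the authors deposited unnormalised counts for 139023 RefSeq transcript rows. Whether counting used strand, and how multiply aligned reads were handled, is not given in the sources used here.

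Each gene took its row with the highest total. Genes were filtered with edgeR's filterByExpr, which left 16761 tested and 29555 not tested, and fitted with edgeR 4.0.16 (R 4.3.3; TMM, robust quasi-likelihood F-test, 9 libraries, 3 group means, no block). Adjusted p-values are Benjamini-Hochberg over all tested genes. Ratios within libraries were tested by exact two-sided permutation on the log2 scale. DESeq2 1.42.0, limma 3.58.1 and other settings were alternatives, and the fit was tested on simulated data. Tables and figures used Python 3.11.15, pandas 2.3.3 and matplotlib 3.10.9. All pairs of libraries within a group differed beyond counting noise. The curated-row and row-level fits were added after the data were seen.

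The 10 genes and the lists were chosen with earlier results of these data known. All 10 genes are described, and called members of the same families may be named. Of every other list the 3 tested members with the smallest p may be named, and likeness names up to 5 genes per gene. Beyond that rule, family members that were not called are also named, among them Slc30a1 and Slc30a6. For treatment Slc39a3 and Slc39a9 are named on an unadjusted p. Values of 1 list member are not reported here.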

Additional observations from a re-analysis of the deposited data

How the results depend on the processing

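Calls of 9 of the 10 genes in untreated db/db against db/+ islets were made under each of 18 alternatives, with the same direction for each gene, as were 0 of 10 for treatment. Between treated db/db and db/+ islets 8 to 10 were made, Slc39a8 and Slc39a10 being those lost. Over single genes 502 of 540 alternative values kept direction and side, 18 lost the call and 20 changed sign. All 20 belonged to Slc39a7 and Slc30a8 in treated against untreated db/db islets. Slc39a7 was -0.011 with DESeq2 size factors and with the DESeq2 test, -0.037 with upper-quartile factors, -0.045 with no filter, -0.05 with summed rows and -0.047 with only the 2 groups. Slc30a8 was -0.024, -0.031, -0.036 and -0.034 in the last 4 of these settings. Leaving out a library moved Slc39a7 from -0.09 to 0.102 and Slc30a8 from -0.135 to 0.235.

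The count of all genes called for treatment, 30, was 227 with no filter, 630 with DESeq2, 10 with limma voom, 9 with summed rows, 0 with only the 2 groups (by edgeR, with 2802 at an unadjusted p under 0.05) and 6 to 437 with a library left out. The cause was not tested. With the replicate number as a block it was 116, and 9, 0 and 8 of the 10 genes were called in the 3 comparisons. Same-numbered libraries did not deviate together (correlations -0.427 to 0.058). Pairs with different numbers spread as widely (-0.304 to 0.437), so these values cannot settle whether the numbers pair samples. Upper-quartile factors and no filter moved the all-gene median log2 fold change of untreated db/db against db/+ islets by 0.107 and 0.108. Slc39a8, at 13 to 43 counts, is limited by depth.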

Other observations

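The lists here are read against the 31.3% of all tested genes called higher and the 32% called lower in untreated db/db against db/+ islets, together 63.3%, and no list was tested against that background. Counts at an unadjusted p under 0.05 for treatment are read against 2918 of 16761 tested genes, likewise without a test. Of 12 tested genes of iron and manganese handling, 5 rose and 3 fell, a share near the background. Ftl1, which encodes the ferritin light chain, was at 1681 ± 323 CPM in db/+ and fell to 717 ± 51.2 (log2 fold change -1.23 ± 0.14, edgeR adjusted p = 1.17e-05), and Atp13a1, a transporter of the endoplasmic reticulum, fell from 179 ± 21.0 to 76.7 ± 3.55 CPM (log2 fold change -1.22 ± 0.11). Tmem165, a Golgi protein linked to manganese, rose from 30.2 ± 1.75 to 54.9 ± 4.42 CPM. Of 7 tested copper genes 2 rose and 3 fell, which is also near it. Atp7a, a copper pump, had a log2 fold change of 0.47 ± 0.10 and Slc31a1, the copper importer Ctr1, of 0.64 ± 0.15, while Ccs, the copper chaperone of superoxide dismutase, had -0.47 ± 0.12. Without db/+ replicate 1 the copper genes gave 3 higher and 1 lower, without untreated replicate 3 they gave 2 and 1, and without db/+ replicate 2 or untreated replicate 2 they gave 2 and 2. For treatment edgeR, DESeq2 and limma voom called 0 genes of both lists, with 2 higher and 1 lower of the first and 1 higher of the second at an unadjusted p under 0.05.

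Metallothionein genes are also known to respond to glucocorticoids and to inflammation. Of 7 tested glucocorticoid-responsive genes 2 rose and 4 fell in untreated db/db islets, led by Per1 (log2 fold change -1.11 ± 0.14), Sgk1 (-0.805 ± 0.13) and Tsc22d3 (-0.60 ± 0.12). These counts were 2 and 3 with summed rows or without db/+ replicate 1 or 2 or untreated replicate 1 or 3. They were 3 and 4 with limma voom or without db/+ replicate 3, and 3 and 3 with upper-quartile factors or no filter. For treatment 0 of the 7 were called by edgeR, DESeq2 or limma voom, with 1 higher and 1 lower at an unadjusted p under 0.05. Of 9 tested acute-phase genes 5 rose and 1 fell. These counts were 2 and 0 without db/+ replicate 1 and 5 and 0 without untreated replicate 2. They were 3 and 0 with no filter or without db/+ replicate 3 or untreated replicate 3. With the replicate block or without db/+ replicate 2 or untreated or treated replicate 1 they were 3 and 1. With DESeq2, only the 2 groups or without treated replicate 3 they were 6 and 1, and with summed rows 7 and 1. For treatment edgeR called 1 of the 9, against 0.179% of all tested genes, not called with only the 2 groups in the fit, and Saa3 was also called lower with DESeq2 or without untreated replicate 2. The 1 gene, Lrg1, was at 0.70 ± 0.0915 CPM in db/+, 19.6 ± 5.998 in untreated db/db and 3.74 ± 1.29 in treated db/db islets, lower with treatment by a log2 fold change of -2.38 ± 0.26 (adjusted p = 0.00316). Il6ra, an interleukin-6 receptor chain, rose from 24.3 ± 4.92 to 47.8 ± 3.43 CPM in untreated db/db islets.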
